A study of Mus musculus with 6 samples.

Results

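The 32 genes described here make cholesterol and fatty acids or control that synthesis, and they were taken by gene symbol from count tables of 23284 symbols. All 32 were present (Msmo1 under its older symbol Sc4mol), and 31 of them were among the 13039 genes with enough counts to be tested. The RNA came from MIN6, an insulin-secreting cell line derived from a mouse insulinoma that often stands in for pancreatic beta cells. Paupar KD cells were given an ASO against Paupar (ASO usually stands for antisense oligonucleotide) and Control KD cells were given a control ASO, with 3 libraries in each group. Paupar is a long noncoding RNA transcribed beside the transcription factor gene Pax6. Dose, time after treatment and cell passage are not stated in the labels, and no symbol in the tables names Paupar, so the depth of the knockdown was not measured here. The labels do not say whether the 3 libraries of a group came from separate cultures, so the spread behind each p-value may be technical.

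Cholesterol is built from acetyl-CoA through mevalonate, isoprenoid units and squalene, and the same acetyl-CoA feeds fatty acid synthesis. Both branches are switched on by SREBP transcription factors, membrane proteins that stay in the endoplasmic reticulum while SCAP is held there by INSIG proteins, and that SCAP carries to the Golgi for cleavage when sterols are scarce. SREBPs commonly act beside NF-Y, a factor that binds the word CCAAT, and several of their targets, Insig1 among them, belong to the control loop itself. In beta cells, membrane cholesterol bears on the formation and release of insulin granules.

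Promoter windows are shown for genes that represent the different patterns described further on: Insig1, whose level was lower in all Paupar KD libraries, its paralog Insig2, the flat mevalonate pathway gene Mvk, and Msmo1, which was low in a single library. Each line holds the 250 bases before the annotated start, 5′ to 3′ on the gene's strand, from RefSeq on GRCm38.p6. Capitals mark CCAAT, which reads as its reverse complement where it lies on the opposite strand, and the palindromic word CACGTG. The windows are chr5:28071162-28071411 (plus strand) for Insig1, chr1:121332590-121332839 (minus strand) for Insig2, chr5:114444019-114444268 (plus strand) for Mvk and chr8:64733579-64733828 (minus strand) for Msmo1.
Insig1: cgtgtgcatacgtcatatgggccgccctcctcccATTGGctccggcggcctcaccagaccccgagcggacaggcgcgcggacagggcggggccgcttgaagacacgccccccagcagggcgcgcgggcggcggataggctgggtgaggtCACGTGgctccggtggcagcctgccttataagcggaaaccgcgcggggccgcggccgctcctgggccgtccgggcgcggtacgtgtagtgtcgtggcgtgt
Insig2: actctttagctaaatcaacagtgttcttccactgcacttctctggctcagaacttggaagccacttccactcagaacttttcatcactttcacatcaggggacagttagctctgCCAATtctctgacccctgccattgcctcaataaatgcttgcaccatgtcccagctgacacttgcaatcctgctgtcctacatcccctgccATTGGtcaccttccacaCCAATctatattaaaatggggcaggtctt
Mvk: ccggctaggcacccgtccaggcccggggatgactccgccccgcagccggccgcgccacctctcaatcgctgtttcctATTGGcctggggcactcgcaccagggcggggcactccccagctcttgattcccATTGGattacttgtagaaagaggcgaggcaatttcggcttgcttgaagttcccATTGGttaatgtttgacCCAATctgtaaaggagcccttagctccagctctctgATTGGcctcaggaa
Msmo1: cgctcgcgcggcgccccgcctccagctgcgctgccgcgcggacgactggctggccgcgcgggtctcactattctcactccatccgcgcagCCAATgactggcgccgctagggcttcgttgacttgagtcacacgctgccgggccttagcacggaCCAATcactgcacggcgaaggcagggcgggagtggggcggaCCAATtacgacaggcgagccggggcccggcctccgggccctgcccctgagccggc

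Windows were found for 26 of the 32 members; Fdft1, Fdps, Scd1, Scd2, Sqle and Stard4 were not matched. On either strand, CCAAT was present before 21 of these 26 members (80.8%), against 37.5% of all 27025 genes of the promoter table and 41.0% of the 9302 of them that were tested here. Counted by window, since some genes have several starts, it was in 22 of 34 member windows (64.7%) and in 33.8% of all windows. CACGTG, a word bound by SREBPs and by other factors of the same family, was before 5 of the 26 members (19.2%), against 6.86% of all genes and 10.03% of those tested. TCACNCCAC, a strict spelling of the sterol regulatory element, was before 1 member, Hmgcs1, and before 1.22% of all genes. Of the windows shown, Mvk had the word CCAAT 5 times, Insig2 and Msmo1 had it 3 times each and Insig1 had it once. Insig2 has 3 annotated starts, of which the first is shown, and the windows of the others held no CCAAT. A word match describes the letters in this window and is not evidence of binding.

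The Paupar KD libraries differed more among themselves than the controls did, and this touches every result on these genes. Between replicates, the biological coefficient of variation came to 18.8% in Paupar KD and 4.95% in Control KD. Paupar KD replicate 1 stood farthest apart, with correlations across genes of 0.973 to 0.984 with the other 5 libraries. Paupar KD replicates 2 and 3 correlated at 0.988 with each other and at 0.988 to 0.989 with the controls. The correlation between controls was 0.996, all on log2 CPM (counts of a gene scaled by the size of its library). Total counts were 16973622 to 23434166 in Paupar KD and 22463557 to 28693863 in Control KD. Beta cell markers were present in all libraries, with 10 of 10 markers tested. Their summed level was 38647 to 57113 CPM in Paupar KD against 32838 to 36967 CPM in Control KD. Most of this sum came from Ins1, Ins2 and Iapp, and Ins1 and Ins2 were highest in Paupar KD replicate 1 (14318 and 28450 CPM). The log2 fold change was positive for 8 of the 10 markers and negative for 2, Slc30a8 and Slc2a2, and none passed. Adipocyte markers summed to 0.343 to 0.685 CPM in Paupar KD and 0.384 to 0.487 CPM in Control KD, with Lep and Cfd at 0. Mesenchymal, endothelial and immune markers summed to 3.37 to 3.95 CPM in Paupar KD and 4.17 to 4.82 CPM in Control KD, with Col3a1, Cdh5 and Ptprc at 0. Of these 10 markers 3 were tested, Cd68, Pecam1 and Lyz2, and none passed. Cd68 was at 0.77, 1.08 and 1.46 CPM in Paupar KD replicates 1 to 3, against 2.44, 2.47 and 2.48 CPM in Control KD. Its groups were apart, with a fold change of 0.46 (edgeR adjusted p = 0.133). Pecam1 and Lyz2 had fold changes of 1.21 and 1.22 with overlapping groups. Of 8 hepatocyte markers 3 were tested, Serpina1a, Apoc3 and Ttr, and none passed. The list summed to 757 to 999 CPM in Paupar KD and 729 to 797 CPM in Control KD. Nearly all of it came from Ttr, which islet cells also express, and Cyp7a1 and Fabp1 were at 0. Serpina1a averaged 1.05 ± 0.194 CPM in Paupar KD and 2.09 ± 0.291 CPM in Control KD. The Serpina1a groups were apart, with a fold change of 0.50 (edgeR adjusted p = 0.144). Apoc3 and Ttr had fold changes of 0.86 and 1.17 with overlapping groups. The part of these lists in the results on lipid genes was not tested.

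None of the 31 tested members passed the test between Paupar KD and Control KD, in either direction (edgeR quasi-likelihood test, Benjamini-Hochberg adjusted over all genes, threshold 0.05). Of all 13039 genes, 0.046% passed, 0.0383% higher and 0.00767% lower, so 0 calls among 31 genes is near the background. DESeq2 also called 0 members, beside 2.05% of all genes higher and 1.72% lower, and limma-voom called 0. With sample quality weights, which give less weight to the more variable libraries, limma-voom called 0 members higher and 4 lower (Insig1, Stard4, Acly and Scd1), while it called 5.97% of all genes higher and 7.32% lower. Upper-quartile factors (0.023% of all genes higher, none lower), no low-count filter (0.207% higher and 0.138% lower) and a filter on mean CPM of at least 1 (0.0163% higher, none lower) each left 0 members called. At an adjusted p under 0.1 edgeR called 0 members, beside 0.422% of all genes higher and 0.291% lower. At an unadjusted p under 0.05, edgeR gave 3 of the 31 members, Insig1, Stard4 and Elovl6, all lower, while 17.7% of all genes were under that p and 8.11% were under it and lower. The groups did not overlap for 4 members, with Srebf2 higher and Insig1, Stard4 and Elovl6 lower. Groups did not overlap for 27.1% of all genes. Both counts of members include Elovl6, which passed the low-count filter only through Control KD. The median log2 fold change of Paupar KD over Control KD was -0.08 over the 31 members and 0.01 over all genes tested, and the median size of the change was 0.11 and 0.16. In bulk RNA, fewer cells with a transcript and less transcript per cell cannot be told apart.

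**Figure D1:**
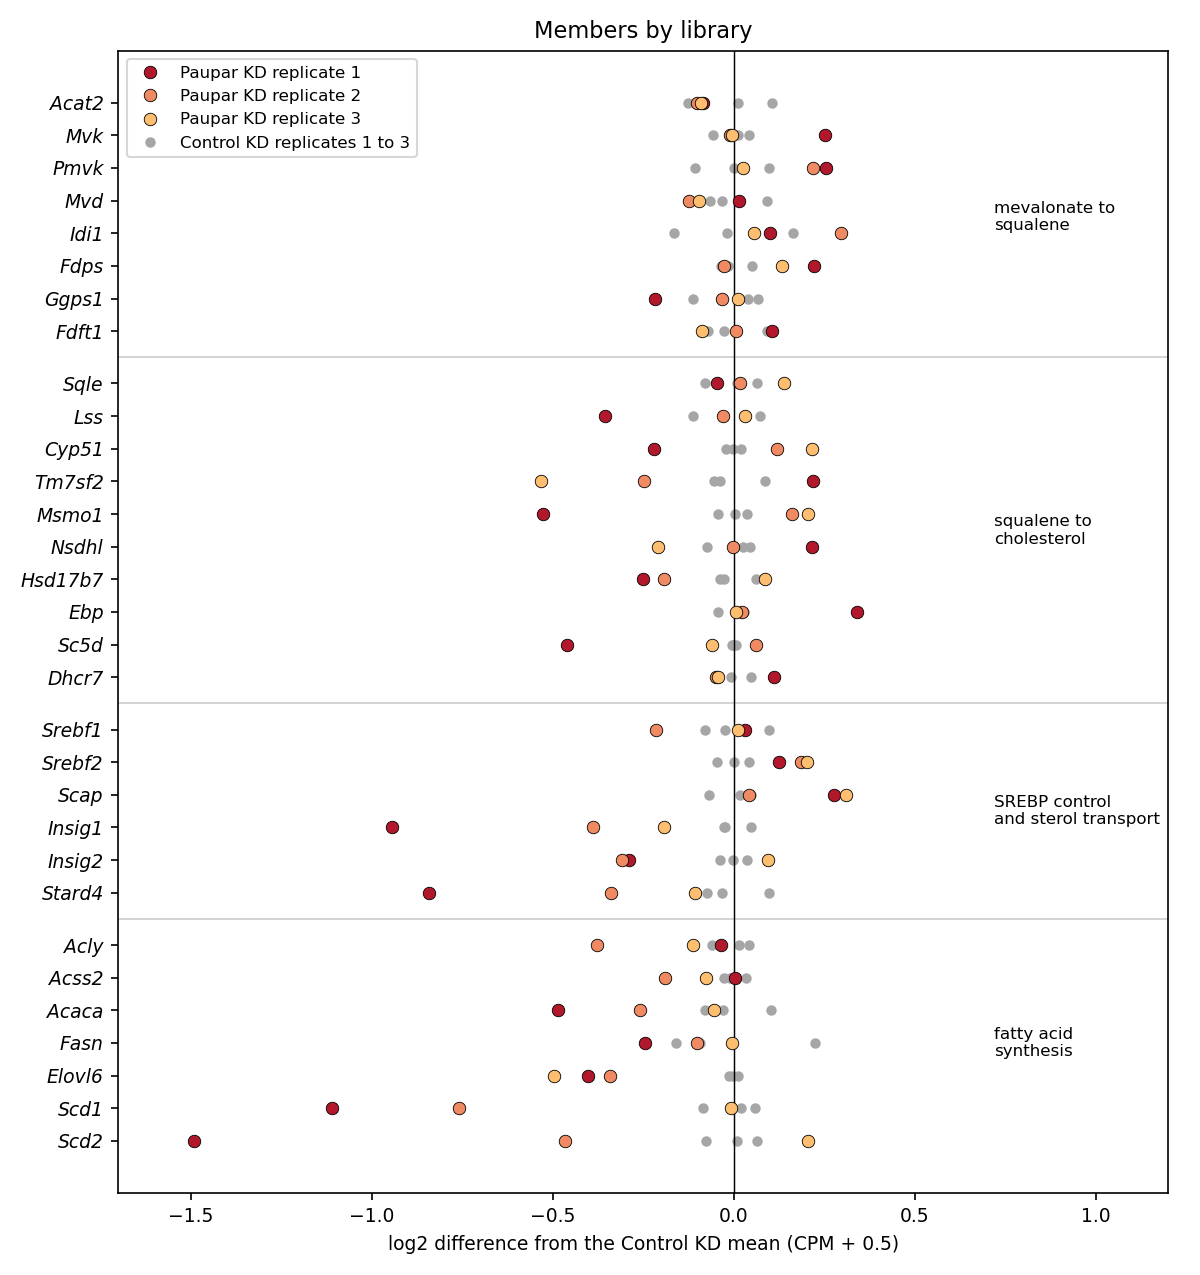
Log2 difference of each library from the Control KD mean (x axis, CPM plus a pseudocount of 0.5) for the 31 tested members, grouped by role; coloured points are the 3 Paupar KD libraries and grey points the 3 Control KD libraries. The mevalonate genes sit close to 0, while Insig1, Stard4, Scd1 and Scd2 spread to the left, farthest in Paupar KD replicate 1 (-1.49 for Scd2).

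The enzymes of sterol synthesis had small fitted changes in both directions. Of 18 tested enzymes from Acat2 to Dhcr7, the log2 fold change was positive for 10 and negative for 8, with a median of 0.01 and a range of -0.16 to 0.17, and none passed. The 95% interval of the change lay within 1.5-fold either way for 18 of these 18 enzymes, against 62.5% of all genes tested. The median standard error was 0.11 for these enzymes and 0.13 for all genes tested. Changes beyond 1.5-fold are outside these intervals, which cover only the spread between these libraries. Elsewhere in the module the interval lay within 1.5-fold for 4 of 6 control and transport genes and for 4 of 7 fatty acid genes.

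In the mevalonate segment, Acat2, which joins acetyl-CoA units, averaged 44.1 ± 0.24 CPM in Paupar KD and 47.0 ± 3.79 CPM in Control KD (SD, n = 3 each). Hmgcs1, which makes HMG-CoA, was listed with 0 counts in all 6 libraries, which allows up to 0.177 CPM in the shallowest library and 0.105 CPM in the deepest by counting error alone; since the genes before and after it in the pathway were well counted, this 0 is not read as absence of the transcript. The kinase genes Mvk and Pmvk averaged 38.2 ± 4.14 and 55.5 ± 4.68 CPM in Paupar KD, against 35.9 ± 1.28 and 49.3 ± 3.48 CPM in Control KD. Pmvk, the kinase that makes mevalonate diphosphate, had the smallest p of the sterol enzymes. It was at 58.9, 57.4 and 50.2 CPM in Paupar KD replicates 1 to 3, against 45.8, 52.7 and 49.3 CPM in Control KD replicates 1 to 3. The Pmvk groups overlapped, and the fold change was 1.13 (95% interval 0.96 to 1.32; edgeR adjusted p = 0.393).

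The next steps make and join isoprenoid units. Mvd, the decarboxylase, averaged 22.7 ± 1.18 CPM in Paupar KD and 23.8 ± 1.42 CPM in Control KD. Idi1, the isomerase, averaged 12.9 ± 1.22 CPM in Paupar KD and 11.6 ± 1.38 CPM in Control KD. Fdps makes farnesyl diphosphate, the branch point towards sterols and prenylation. Its mean was 62.2 ± 5.39 CPM in Paupar KD and 57.5 ± 1.805 CPM in Control KD. Ggps1, which leads away to geranylgeranyl diphosphate, averaged 46.1 ± 3.81 CPM in Paupar KD and 48.6 ± 3.23 CPM in Control KD, and Fdft1, squalene synthase, averaged 85.8 ± 5.78 CPM in Paupar KD and 85.1 ± 5.05 CPM in Control KD. All 5 had overlapping groups and edgeR adjusted p-values from 0.538 for Fdps to 0.963 for Fdft1.

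Sqle, squalene epoxidase, is a main point of control of the late pathway. It was at 238, 248 and 270.3 CPM in Paupar KD replicates 1 to 3, against 247, 257 and 232 CPM in Control KD replicates 1 to 3. The groups overlapped and the fold change was 1.03 (95% interval 0.89 to 1.18; edgeR adjusted p = 0.840). Dhcr7, the reductase that forms cholesterol, was as flat, at 57.7 ± 3.74 CPM in Paupar KD and 57.4 ± 1.82 CPM in Control KD (95% interval 0.88 to 1.15).

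Several enzymes between them agreed in the controls and scattered in Paupar KD, mostly through replicate 1. Msmo1, the sterol methyl oxidase, was at 68.7, 111 and 114 CPM in Paupar KD replicates 1 to 3, against 96.3, 102 and 99.5 CPM in Control KD replicates 1 to 3. Replicate 1 was below and replicates 2 and 3 were above all controls. Sc5d, the sterol desaturase, was at 55.5, 79.9 and 73.4 CPM in Paupar KD, against 76.4, 76.8 and 76.2 CPM in Control KD. Cyp51, the lanosterol demethylase, was at 185, 234 and 250.03 CPM in Paupar KD, against 212, 215 and 218 CPM in Control KD. For Sc5d and Cyp51, as for Msmo1, the lowest of all 6 libraries was Paupar KD replicate 1. Leaving that library out, the fold change of Msmo1 was 1.13 and that of Cyp51 1.12 (edgeR adjusted p = 0.164 and 0.199), and that of Sc5d was 0.998.

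Other late enzymes were higher in replicate 1 than in the controls. Ebp, the sterol isomerase, was at 60.3 CPM in Paupar KD replicate 1, 48.3 CPM in replicate 2 and 47.8 CPM in replicate 3, against 48.5, 48.0 and 46.1 CPM in Control KD. Tm7sf2, a sterol reductase, was at 30.5, 22.0 and 17.9 CPM in Paupar KD, against 27.8, 25.2 and 25.5 CPM in Control KD, so replicate 1 was the highest and replicate 3 the lowest of all libraries. Nsdhl, a dehydrogenase of demethylation, was at 42.6, 36.5 and 31.6 CPM in Paupar KD, against 34.7, 37.7 and 37.2 CPM in Control KD. The remaining enzymes, Lss (86.5 ± 12.1 CPM in Paupar KD and 93.3 ± 6.23 CPM in Control KD) and Hsd17b7 (34.2 ± 4.45 and 37.0 ± 1.46 CPM in Paupar KD and Control KD), had overlapping groups. Summed over the 10 late enzymes, the level was 846, 959 and 996 CPM in Paupar KD replicates 1 to 3, against 921, 952 and 929 CPM in Control KD.

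**Figure D2:**
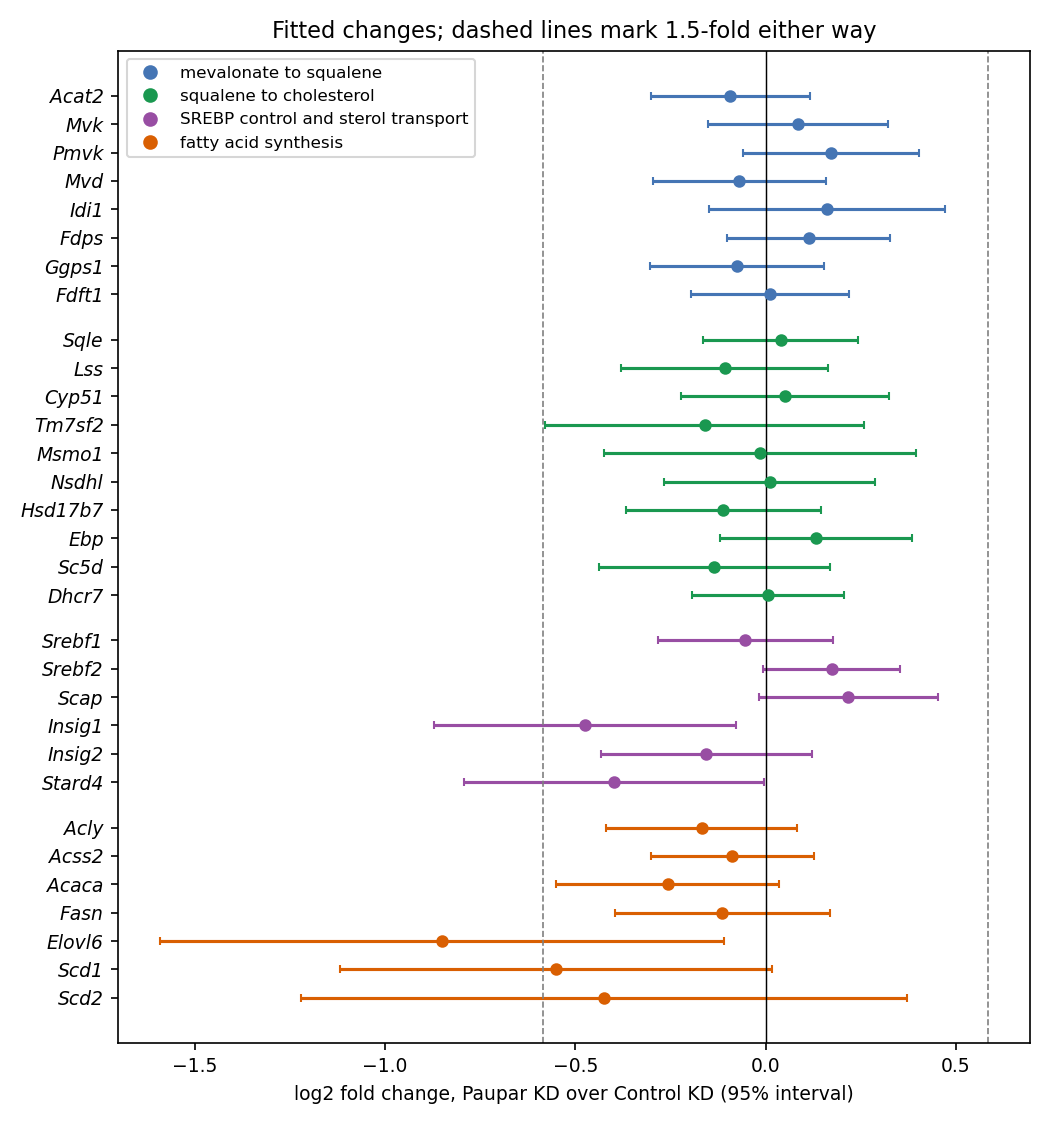
Fitted log2 fold change of Paupar KD over Control KD with its 95% interval (x axis) for the 31 tested members, coloured by role; dashed lines mark 1.5-fold either way. All 18 sterol enzymes lie between the dashed lines, and the intervals of Insig1, Stard4, Elovl6, Scd1 and Scd2 cross the left line.

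Among the control genes, the levels of Insig1 and Insig2 differed in how far they separated the groups. Insig1, the INSIG gene that SREBPs themselves activate, was at 135, 199 and 228 CPM in Paupar KD replicates 1 to 3, against 256, 270.0 and 257 CPM in Control KD replicates 1 to 3. All 3 Paupar KD values were below all 3 controls. The fold change was 0.72 (log2 fold change -0.47 ± 0.17 SE, 95% interval 0.55 to 0.95), which missed the threshold (edgeR adjusted p = 0.236). It was 0.82 without Paupar KD replicate 1 (edgeR adjusted p = 0.0876). Without Paupar KD replicate 3 it was 0.64 and was called lower (edgeR adjusted p = 0.0415), in a fit that called 10.3% of all genes (4.65% higher and 5.67% lower). Insig2, the paralog with its own promoters, was at 85.7, 84.7 and 112 CPM in Paupar KD, against 105, 108 and 102 CPM in Control KD. Replicate 3 of Insig2 was the highest of all 6 libraries, and the fold change was 0.90 (95% interval 0.74 to 1.09; edgeR adjusted p = 0.514). Per exon length, Insig1 exceeded Insig2 by 2.07, 3.09 and 2.67 times in Paupar KD, against 3.21, 3.29 and 3.29 times in Control KD.

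Stard4, which encodes a carrier that moves cholesterol between membranes and is itself an SREBP target, followed the same order of libraries as Insig1. It was at 102, 144 and 169.5 CPM in Paupar KD replicates 1 to 3, against 174, 196 and 179 CPM in Control KD replicates 1 to 3. The Stard4 groups were apart, with Paupar KD replicate 3 just below the lowest control. The fold change was 0.76 (95% interval 0.578 to 0.996; edgeR adjusted p = 0.278). It was 0.86 without Paupar KD replicate 1 (edgeR adjusted p = 0.204) and 0.67 without Paupar KD replicate 3, where it was called lower (edgeR adjusted p = 0.0488). The fit without Paupar KD replicate 3 called 5.67% of all genes lower.

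The genes of the factors themselves did not go with Insig1 and Stard4. Srebf2, which encodes the SREBP of sterol synthesis, was at 185, 193 and 195 CPM in Paupar KD replicates 1 to 3, against 169.7, 164 and 175 CPM in Control KD replicates 1 to 3. Its groups were apart, with Paupar KD higher and its 3 libraries close together, and the fold change was 1.13 (95% interval 0.996 to 1.28; edgeR adjusted p = 0.291). Scap, the escort protein gene, was at 39.7, 33.6 and 40.7 CPM in Paupar KD, against 33.1, 31.1 and 33.8 CPM in Control KD. Replicate 2 of Scap fell within the controls, and the fold change was 1.16 (95% interval 0.99 to 1.37; edgeR adjusted p = 0.308). Srebf1, whose product favours fatty acid genes, was at 321, 270.4 and 317 CPM in Paupar KD, against 309, 297 and 336 CPM in Control KD, with overlapping groups and a fold change of 0.96 (95% interval 0.82 to 1.13; edgeR adjusted p = 0.808). SREBP activity is set by cleavage, which these transcript levels do not measure.

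**Figure D3:**
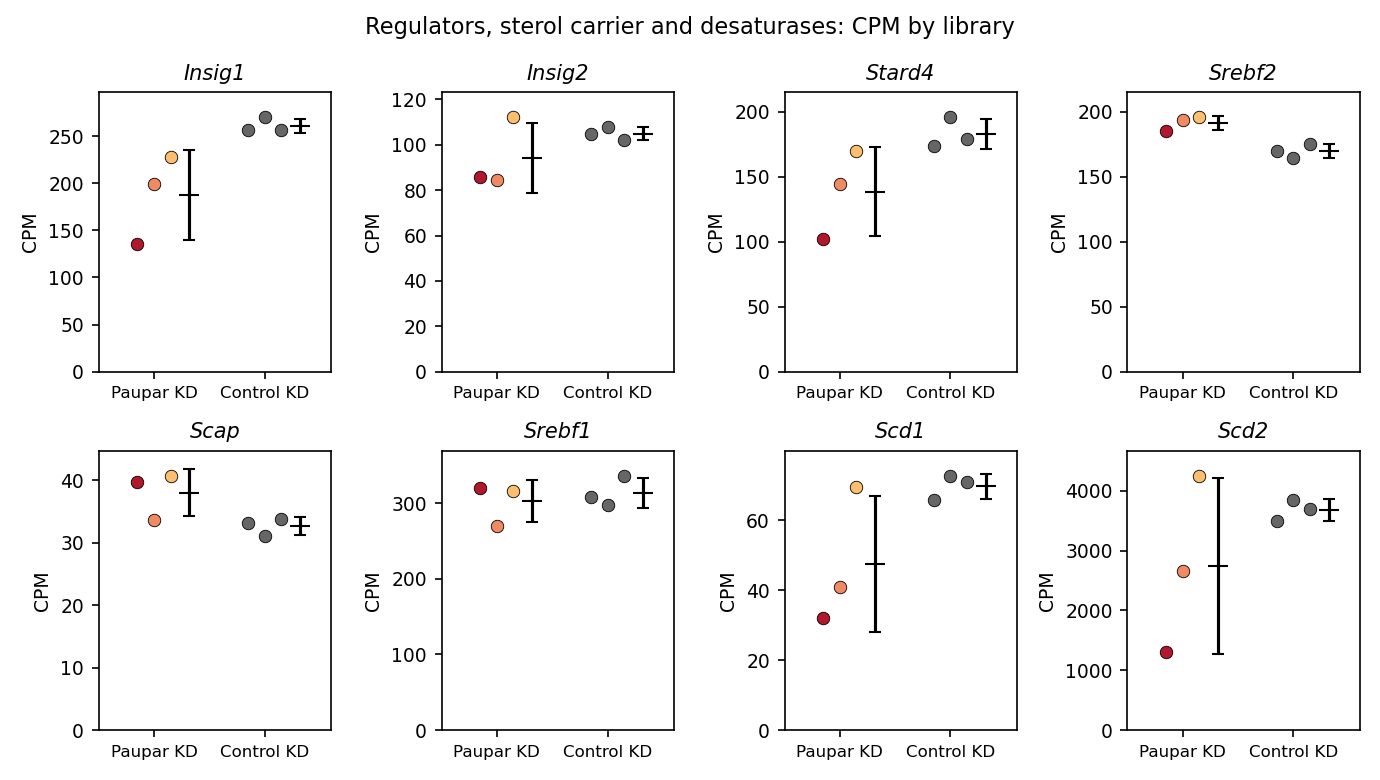
CPM (y axis, from 0) of 8 members in each library, Paupar KD to the left and Control KD to the right, with replicates 1 to 3 from left to right in each group and the mean ± SD beside them (n = 3). Insig1 and Stard4 are below all controls in the 3 Paupar KD libraries, Srebf2 is above them, and Scd2 runs from 1310.4 to 4248 CPM within Paupar KD.

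The log2 fold change was negative for all 7 fatty acid genes (median -0.26), and none passed. It was negative for 6387 of all 13039 genes tested. Elovl6 is counted among these 7 but passed the low-count filter only through Control KD. By library, the median log2 difference of the 7 genes to the controls' mean came to -0.40, -0.34 and -0.05 in Paupar KD replicates 1 to 3. The same median over the 18 sterol enzymes was 0.06, -0.01 and 0.01, and over all genes tested it was -0.00, 0.00 and 0.01. In replicate 1 it was 0.10 over the enzymes up to squalene and -0.13 over the late enzymes, so the pooled 0.06 joins opposite directions. The median size of the difference in replicate 1 was 0.22 for sterol enzymes, 0.40 for fatty acid genes and 0.28 for all genes tested. Replicate 3 lay near the controls over the fatty acid genes. All 7 were still negative without Paupar KD replicate 1 (median -0.16), and 0 were called, beside 1.91% of all genes (0.934% higher and 0.972% lower). The difference between the fatty acid and the sterol genes was not tested.

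Acly, which makes cytosolic acetyl-CoA from citrate, was at 3149.8, 2487 and 2985 CPM in Paupar KD replicates 1 to 3, against 3098, 3265 and 3324 CPM in Control KD replicates 1 to 3. Here replicate 2, not replicate 1, was the lowest, and the fold change was 0.89 (95% interval 0.75 to 1.06; edgeR adjusted p = 0.435). Acss2, which makes acetyl-CoA from acetate, averaged 27.1 ± 1.86 CPM in Paupar KD and 28.8 ± 0.643 CPM in Control KD. Acaca, acetyl-CoA carboxylase, was at 21.3, 25.0 and 28.9 CPM in Paupar KD, against 28.4, 29.3 and 32.2 CPM in Control KD. Only replicate 3 reached the range of the controls, and the fold change of Acaca was 0.84 (95% interval 0.68 to 1.03; edgeR adjusted p = 0.325). Fasn, fatty acid synthase, was at 302, 333 and 357 CPM in Paupar KD, against 320.0, 335 and 418 CPM in Control KD, with a fold change of 0.92 (95% interval 0.76 to 1.12; edgeR adjusted p = 0.652). The Fasn groups overlapped, and control replicate 3 was the highest.

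The desaturase genes Scd1 and Scd2, which introduce the double bond of oleate and palmitoleate, varied most between the Paupar KD libraries. Scd1 was at 32.02, 41.0 and 69.4 CPM in Paupar KD replicates 1 to 3, against 65.7, 72.7 and 70.8 CPM in Control KD replicates 1 to 3. Replicates 1 and 2 were below all controls and replicate 3 was among them, for a fold change of 0.68 (95% interval 0.46 to 1.01; edgeR adjusted p = 0.290). Without Paupar KD replicate 3 the fold change of Scd1 was 0.52 and it was called lower (edgeR adjusted p = 0.00705). That fit called 5.67% of all genes lower. Without Paupar KD replicate 1 the fold change of Scd1 was 0.79 and it was not called (edgeR adjusted p = 0.376), beside 0.972% of all genes called lower. Scd2 was at 1310.4, 2667 and 4248 CPM in Paupar KD, against 3489.9, 3849 and 3703 CPM in Control KD. Paupar KD thus held both the lowest and the highest Scd2 value of the series, and the fold change of 0.74 had a 95% interval of 0.43 to 1.29 (edgeR adjusted p = 0.534). The Scd2 fold change was 0.94 without Paupar KD replicate 1. Scd1 and Scd2 are neighbours on chromosome 19 of mm9 (Scd2 at 44368166 to 44381354, Scd1 at 44468941 to 44482199) with similar coding sequences, and how reads were divided between them was not tested. Elovl6, the elongase of saturated fatty acids, was barely detected, with 6, 8 and 7 counts in Paupar KD against 14, 15 and 18 counts in Control KD. The groups of Elovl6 were apart, and the fold change of 0.55 (95% interval 0.33 to 0.93) did not pass (edgeR adjusted p = 0.249). Since Elovl6 passed the low-count filter only through Control KD, neither its separation nor its direction is read as a result.

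Per exon length, Scd2 and Acly dominated the module. Scd2 had 503 ± 269.6 RPKM (CPM per kilobase of annotated exon) in Paupar KD and 675 ± 33.1 RPKM in Control KD, and Acly had 544 ± 65.4 and 612 ± 22.2 RPKM in Paupar KD and Control KD. The next in Control KD was Insig1, at 70.9 ± 18.0 RPKM in Paupar KD and 98.6 ± 2.94 RPKM in Control KD. The sterol enzymes ranged in Control KD from 4.04 RPKM for Idi1 to 50.2 RPKM for Cyp51. Elovl6 was the lowest, with 0.0586 ± 0.00768 RPKM in Paupar KD and 0.106 ± 0.00157 RPKM in Control KD. Scd2 exceeded Scd1 by 36.3, 57.7 and 54.3 times in Paupar KD replicates 1 to 3, against 47.1, 47.0 and 46.4 times in Control KD. The Srebf1 level exceeded that of Srebf2 by 1.53, 1.24 and 1.43 times in Paupar KD, against 1.61, 1.599 and 1.70 times in Control KD.

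**Figure D4:**
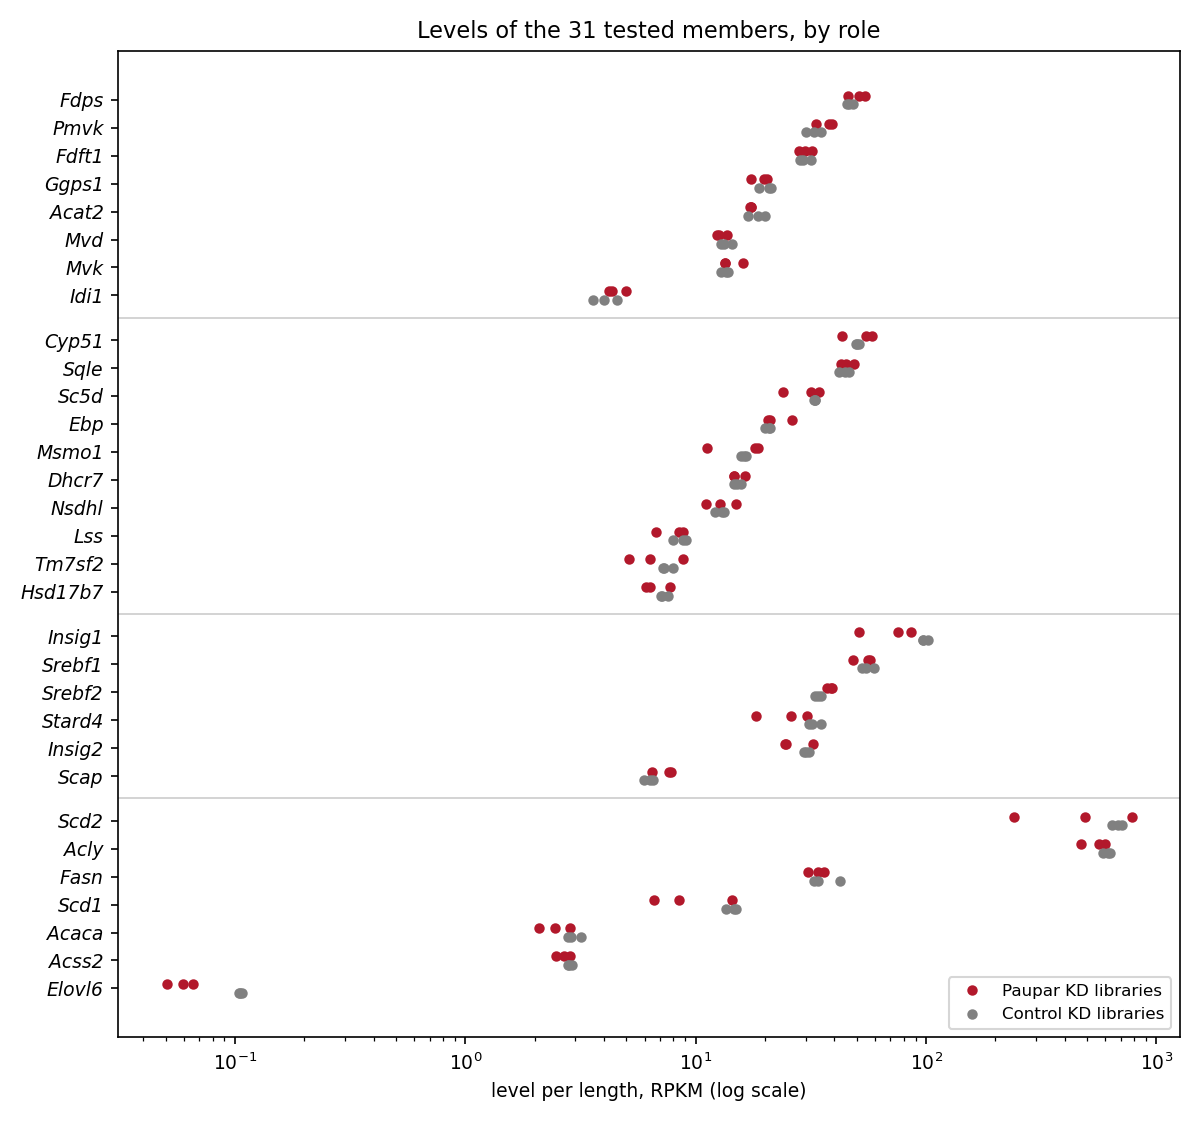
RPKM of the 31 tested members (x axis, log scale) in the 3 Paupar KD libraries (red, upper row of each gene) and the 3 Control KD libraries (grey, lower row), ordered within each role by the Control KD mean. Scd2 and Acly lie near the top of the scale, Elovl6 lies far below all others, and the red points of Scd2, Scd1 and Insig1 spread more widely than the grey ones.

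Where a member overlaps another gene, its level may have gained or lost reads. The strand setting of the counting is not given in the sources used here, and how reads over shared bases were handled was not tested. In the mm9 annotation 9 members share exon bases with another gene, 7 of them with a gene on the opposite strand. The longest such overlaps were 985 bases between Scap and 5830462I19Rik and 769 bases between Fdft1 and Ctsb. Tm7sf2 shares 532 bases with 1110014N23Rik on the same strand.

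Genes around the module were read from further lists, drawn up by function with earlier results of these data known. The genes named from them were mostly picked for a small p in these same data. Of 20 other genes of sterol synthesis, SREBP processing and sterol binding, 0 passed in either direction, the log2 fold change being positive for 9 and negative for 11 (median -0.03). Lbr, which encodes a lamin-binding sterol reductase that shares its reaction with Tm7sf2, was at 71.2, 64.5 and 100.2 CPM in Paupar KD replicates 1 to 3, against 156, 162 and 152 CPM in Control KD replicates 1 to 3. The Lbr groups were far apart, with a fold change of 0.50 (95% interval 0.39 to 0.65; edgeR adjusted p = 0.0717). Osbp, an oxysterol-binding protein gene of membrane contact sites, was at 215, 230.0 and 241 CPM in Paupar KD, against 149.5, 155 and 164 CPM in Control KD, 1.47-fold higher with the groups apart (95% interval 1.28 to 1.68; edgeR adjusted p = 0.0691). Mbtps2, which encodes a protease that cuts SREBPs in the Golgi, was at 30.0, 37.0 and 41.7 CPM in Paupar KD, against 50.6, 57.7 and 54.5 CPM in Control KD. Its groups were also apart, with a fold change of 0.67 (95% interval 0.54 to 0.82; edgeR adjusted p = 0.133). Each of these genes was called without Paupar KD replicate 1, Lbr at an edgeR adjusted p of 0.0447, Osbp at 0.00763 and Mbtps2 at 0.0444, in the fit that called 0.934% of all genes higher and 0.972% lower. The fit without Paupar KD replicate 2 called 0 of 13173 genes. DESeq2 called each as well (adjusted p = 4.37e-06 for Lbr, 1.14e-05 for Osbp and 0.00808 for Mbtps2), which called 3.78% of all genes.

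LXR genes and sterol efflux, which lower cell cholesterol when oxysterols are plentiful, were read from a list of 8 genes. Of these 7 were tested, the log2 fold change was negative for 7 of the 7 (median -0.36), and 0 passed. It was negative for 6387 of all 13039 genes tested. The groups were apart, with Paupar KD lower, for 4 of the 7, and 13.3% of all genes were apart in that direction. The groups overlapped for Nr1h3, Abcg4 and Lpcat3. Nr1h3 had only 5 to 13 counts per library and Abcg4 had 16 to 50, and the log2 fold change of Lpcat3 was -0.07. Abca1, the cholesterol exporter gene, was at 10.3, 15.6 and 26.7 CPM in Paupar KD replicates 1 to 3, against 31.7, 32.3 and 34.2 CPM in Control KD replicates 1 to 3, a fold change of 0.54 (95% interval 0.34 to 0.85; edgeR adjusted p = 0.206). Replicate 1 was again the lowest, and replicate 3 the nearest to the controls. Abcg1, another exporter, was at 78.4, 80.9 and 97.4 CPM in Paupar KD, against 120.4, 118 and 122 CPM in Control KD (fold change 0.71, 95% interval 0.61 to 0.84; edgeR adjusted p = 0.118). Mylip, a ubiquitin ligase gene that LXR activates, was at 18.0, 15.8 and 15.9 CPM in Paupar KD, against 24.7, 22.8 and 21.4 CPM in Control KD (fold change 0.72, 95% interval 0.61 to 0.86; edgeR adjusted p = 0.137). Mylip did not share the order of libraries seen for Insig1, since its replicate 1 was the highest of the 3. The receptor gene Nr1h2, named because its groups were apart, was at 61.9, 59.6 and 57.9 CPM in Paupar KD, against 70.9, 66.9 and 72.8 CPM in Control KD (fold change 0.85; edgeR adjusted p = 0.231).

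The call on the LXR list depended on single libraries and on the tool. Without Paupar KD replicate 1, Abcg1 and Mylip were called lower (edgeR adjusted p = 0.0469 and 0.0447), and 0.972% of all genes were lower. Without Paupar KD replicate 3, Abca1, Abcg1 and Mylip were called lower (edgeR adjusted p = 0.00622, 0.00878 and 0.0494), in the fit that called 5.67% of all genes lower. No gene of any kind was called without Paupar KD replicate 2. DESeq2 called all 3 lower (adjusted p = 0.0450, 0.00475 and 0.0205), beside 1.72% of all genes.

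**Figure D5:**
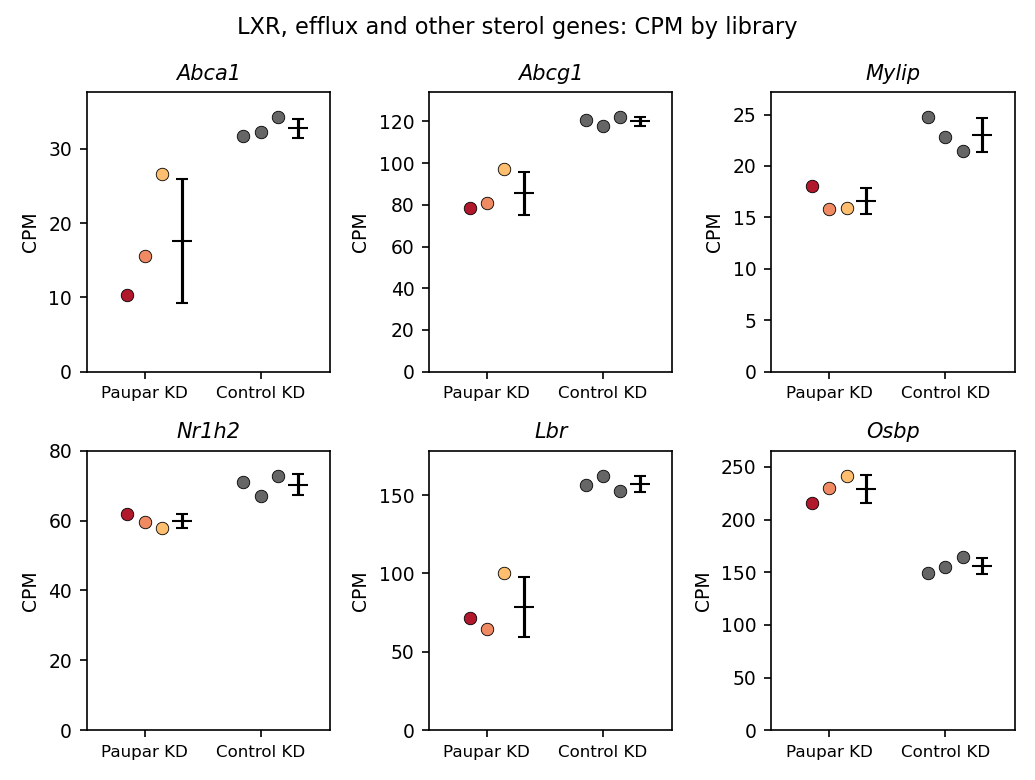
CPM (y axis, from 0) of 6 genes of sterol efflux, LXR and sterol binding in each library, Paupar KD to the left and Control KD to the right, with replicates 1 to 3 from left to right and the mean ± SD beside them (n = 3). Abca1, Abcg1, Mylip, Nr1h2 and Lbr lie below all controls in the 3 Paupar KD libraries, and Osbp lies above them.

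Of 20 other genes of fatty acid and lipid synthesis, 0 passed in either direction, the log2 fold change being positive for 7 and negative for 13 (median -0.08). Fads1, a desaturase gene of polyunsaturated fatty acids, was at 542, 592 and 678 CPM in Paupar KD replicates 1 to 3, against 698, 742 and 765 CPM in Control KD replicates 1 to 3. Its groups were apart, with a fold change of 0.82 (95% interval 0.70 to 0.97; edgeR adjusted p = 0.240). It was called lower without Paupar KD replicate 3 (edgeR adjusted p = 0.0465) and by limma-voom with quality weights (adjusted p = 0.0229), which called 5.67% and 7.32% of all genes lower. Hsd17b12, which encodes a reductase of fatty acid elongation, was at 124, 159 and 162 CPM in Paupar KD, against 115, 115 and 122 CPM in Control KD. Its groups were apart, with Paupar KD higher (fold change 1.26, edgeR adjusted p = 0.225). It was called higher without Paupar KD replicate 1 (edgeR adjusted p = 0.0165), as were 0.934% of all genes. With quality weights, limma-voom also called it higher (adjusted p = 0.00465), beside 5.97% of all genes. Thrsp, a small lipogenic regulator gene, was low throughout, at 2.65, 1.32 and 2.32 CPM in Paupar KD against 1.02, 1.28 and 1.26 CPM in Control KD. The Thrsp groups were apart, with Paupar KD replicate 2 just above the highest control (fold change 1.75, edgeR adjusted p = 0.240).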

How the data were processed

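Each library has a deposited table of raw counts, unnormalized whole numbers over 23284 gene symbols. The tools listed, per the submitters' processing notes, are HTSeq, HISAT2, DESeq2 and CASAVA 1.8.2, and the build is mm9; which step each did, the annotation and the strand setting are not stated there. Total counts were 16973622 to 28693863 per library. Every pair of libraries differed by more than sampling noise (chi-square per gene 3.46 or more, 1 if only sampling differed).

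These counts went into edgeR 4.0.16 (R 4.3.3): filterByExpr (minimum count 10, smallest group 3), TMM scaling, and the quasi-likelihood test with robust estimation over all 13039 tested genes, with Benjamini-Hochberg adjustment at 0.05. The standard error is the size of the log2 fold change divided by the square root of F, and the 95% interval uses the fit's degrees of freedom. CPM are counts scaled with the TMM factors; RPKM divide them by the union of exons in GENCODE M1 (NCBIM37, the assembly called mm9). Intervals and floors for a count of 0 (3 counts per library) cover counting error and spread between these libraries only. Log2 differences per library use CPM plus 0.5. The test was checked on simulated counts. Alternatives were other scaling factors and low-count filters, DESeq2 1.42.0, limma-voom (limma 3.58.1) with and without sample quality weights, no robust estimation, a replicate block, a threshold of 0.1 and leaving out each library; for genes outside the module they were added after the data were seen.

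Members and lists were chosen with earlier results of these data known. Values in every library are given for the SREBP, SCAP and INSIG genes, Hmgcs1, Sqle, Fasn, Acaca, Scd1 and Scd2, members with separate groups, and the 10 members with the smallest p; of each other list, the 3 genes with the smallest p are named, except for 1 gene that is not reported here. Msmo1, Sc5d, Cyp51, Ebp, Tm7sf2, Nsdhl and Nr1h2 were given by library after their values were seen.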

Additional observations from a re-analysis of the deposited data

How the results depend on the processing

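Of 31 members 21 kept their direction in every alternative that gave them a value (16 for each, 15 for Elovl6, which the filter on mean CPM removed), and 10 changed it in at least 1, none of them ever called. Members called higher were 0 in every alternative. Members called lower were 0 except with limma-voom and quality weights, which called 4 (Insig1, Stard4, Acly and Scd1, with 7.32% of all genes lower), and with 1 library left out, where the count was 0 to 3 (3 without Paupar KD replicate 3, Insig1, Stard4 and Scd1, where 5.67% of all genes were lower; 0 without Paupar KD replicate 1, where 0.972% were lower; and 0 without any other library, where no gene was called, so that these fits say nothing about the members). The cause was not tested. The median log2 fold change of the members was -0.048 with upper-quartile factors, -0.09 to -0.05 with a library left out, and -0.08 in the fit reported above; upper-quartile factors also moved the median of all genes to 0.03. Changes of sign were as follows. Without a low-count filter: Fdft1 -0.0028, Nsdhl -0.0026 and Dhcr7 -0.0065. With mean CPM of at least 1: Dhcr7 -0.0014. With upper-quartile factors: Msmo1 0.0098. With limma-voom: Nsdhl -0.0046. With quality weights: Fdft1 -0.0078, Msmo1 0.10, Nsdhl -0.018 and Dhcr7 -0.029. With a library left out the log2 fold change ran from -0.013 to 0.13 for Mvk, -0.045 to 0.058 for Fdft1, -0.013 to 0.074 for Sqle, -0.039 to 0.16 for Cyp51, -0.40 to 0.0018 for Tm7sf2, -0.14 to 0.18 for Msmo1, -0.11 to 0.11 for Nsdhl, -0.053 to 0.032 for Dhcr7, -0.10 to 0.014 for Srebf1 and -0.19 to 0.013 for Fasn. With a replicate block, 0 members were called in either direction (1 gene higher and 0 lower over all genes) and the median of the members was -0.08; deviations of same-numbered libraries correlated at 0.07, -0.01 and 0.01, and for 1 of 3 Paupar KD libraries the closest control was the same-numbered one, so no pairing by number was detected; the labels do not state one. The 15 genes with the smallest p in the lists outside the module kept their direction in every alternative; they were picked for that p. Elovl6 had 6 to 18 counts per library, so depth limits its value, and DESeq2 gave it no adjusted p.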

Other observations

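The isoprenoid branches that leave the pathway at farnesyl and geranylgeranyl diphosphate mostly had small fitted changes. Of 12 genes of dolichol, ubiquinone and protein prenylation, 12 were tested and 0 passed, with 8 positive and 4 negative log2 fold changes and a median of 0.02. The 95% interval lay within 1.5-fold either way for 11 of the 12. Pdss1, which builds the ubiquinone side chain, had the smallest p, at 12.3, 13.5 and 16.9 CPM in Paupar KD replicates 1 to 3, against 18.9, 17.2 and 16.5 CPM in Control KD replicates 1 to 3 (edgeR adjusted p = 0.310). Without Paupar KD replicate 3, Pdss1 was called lower (edgeR adjusted p = 0.0494), in the fit that called 5.67% of all genes lower. Nus1 and Dhdds, which together make dolichol precursors, averaged 127 ± 14.99 and 97.8 ± 4.04 CPM in Paupar KD, against 140.0 ± 2.32 and 91.0 ± 3.30 CPM in Control KD.

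Fatty acid oxidation, the opposing pathway, held 0 calls among 11 tested of 12 listed genes, with 6 positive and 5 negative log2 fold changes and a median of 0.03. Ppara, a nuclear receptor gene of fatty acid oxidation, was at 2.42, 3.91 and 4.63 CPM in Paupar KD replicates 1 to 3, against 1.86, 1.96 and 2.69 CPM in Control KD replicates 1 to 3, with overlapping groups (edgeR adjusted p = 0.238). Ehhadh, a peroxisomal oxidation enzyme gene, was at 37.5, 37.0 and 44.5 CPM in Paupar KD, against 46.6, 49.9 and 49.3 CPM in Control KD. Its groups were apart, with Paupar KD lower (fold change 0.82, edgeR adjusted p = 0.223). Without Paupar KD replicate 3, Ehhadh was called lower (edgeR adjusted p = 0.0347), as were 5.67% of all genes. With quality weights, limma-voom called Ehhadh lower and Ppara higher (adjusted p = 0.019 and 0.0184), beside 7.32% of all genes lower and 5.97% higher.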
